A study of Mus musculus with 6 samples.

Results

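The transcription factor p53, encoded in the mouse by Trp53, and 9 genes that it is known to induce were examined in T1 and T2 cells. The 10 genes, Trp53, Mdm2, Cdkn1a, Ccng1, Gadd45a, Bbc3, Pmaip1, Trp53inp1, Sesn2 and Zmat3, were taken by symbol from a table of 24129 gene names, and all 10 were in it. The values came from 6 RNA sequencing libraries, 3 of T1 cells (4T1A in the labels) and 3 of T2 cells (4T1NA). Both populations descend from 4T1GFP, a BALB/c mouse mammary carcinoma line tagged with green fluorescent protein (GFP), which had been injected into the mammary fat pad of BALB/c mice. Tumor cells that outgrew a culture of sorted fibroblasts from the resected primary tumor were sorted again by GFP. T1 cells had low GFP, grew adherent with an epithelial morphology and proliferated faster, and T2 cells had high GFP, were round and loosely adherent. Neither group received a drug, and T2 cells were subcultured like a suspension, without trypsin. The comparison thus sets the p53 network of 2 sorted populations side by side. The parental cells were not analysed here.

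p53 is held low in unstressed cells by Mdm2, a ubiquitin ligase that marks it for degradation and is itself a p53 target, so that the pair forms a feedback loop. When DNA damage or other stress frees p53, it binds DNA as a tetramer and switches on genes that stop the cell cycle, such as Cdkn1a, or promote apoptosis, such as Bbc3 and Pmaip1. p53 protein is regulated largely after translation, and the RNA of its targets is the usual readout of its activity. Most of these targets also respond to other factors, and Sesn2, Gadd45a, Pmaip1 and Bbc3 are known to rise in other kinds of stress. The 4T1 line is generally regarded as lacking functional p53. The table holds counts per gene and no sequence, so the state of Trp53 in T1 and T2 cells was not examined here.

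p53 binds pairs of a 10-base site whose core begins with C and ends with G 3 bases later, and 2 such sites side by side make an element of 20 bases. Promoter windows of 300 bases (250 before and 50 after a RefSeq start site, GRCm38.p6, the build of mm10) were available for 7 of the 10 genes. Pmaip1, Trp53inp1 and Zmat3 had no window. The windows were searched for the p53 consensus, which reads the same on both strands, with the 2 sites adjacent and at most 1 mismatch over the 20 bases. Cdkn1a and Ccng1 held such an element, as did 29 of the 32851 windows of all genes (0.0883%). The threshold for a match was set after the windows were seen. These 2 sequences are shown because both genes act in the cell cycle and differed in opposite directions between the populations. The element is in capitals, the strand is that of the gene, and no annotated exon lies in either stretch.
Cdkn1a, chr17:29090849-29090968, plus strand: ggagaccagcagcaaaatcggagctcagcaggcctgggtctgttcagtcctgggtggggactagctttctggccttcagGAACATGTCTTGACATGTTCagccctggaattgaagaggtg
Ccng1, chr11:40755412-40755531, minus strand: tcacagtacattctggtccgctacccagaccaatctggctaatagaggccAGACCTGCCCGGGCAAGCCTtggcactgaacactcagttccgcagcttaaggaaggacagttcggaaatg
The Cdkn1a element begins 51 bases before the upstream of 2 RefSeq starts of the gene, which lie 2790 bases apart, and the Ccng1 element begins 195 bases before its start. The windows of Trp53 (GGACTTGCCC), Mdm2 (GAACTTGCCT) and Gadd45a (GGGCTAGCCC) held 1 such 10-base site with no mismatch. In Ccng1 the site without a mismatch lies inside the element, and in Cdkn1a 1 lies inside it and 1 before it (GGACTAGCTT). At least 1 such site occurred in 8.36% of all windows. The windows of Bbc3 and Sesn2 held none, which says only that these letters are not in these windows.

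The values are read counts that the authors divided by 1 size factor per library. The libraries held 18133227 to 20839686 reads on genes, and 1 read was worth 0.928 to 1.06 normalized counts. limma was run on log2(normalized count + 1) of T1 and T2 values over the 11514 genes whose mean reached 10 normalized counts. A gene was called different at a Benjamini-Hochberg adjusted p-value under 0.01, and fold changes are T1 over T2 on that log2 scale, where low genes show less than their true change. Of all genes tested, 49.5% were called, 25.1% as higher and 24.4% as lower in T1 cells. Of the 10 genes here, 9 were tested, 4 were called higher and 2 lower in T1 cells, and 3 were not called. Their median absolute log2 fold change was 1.02, against 0.45 over all genes tested. With 3 samples against 3, an exact permutation test cannot give a two-sided p below 0.1. The labels do not say that the replicates came from separate cultures, so p-values measure only the spread between these samples, which may be technical, and intervals from read numbers cover counting error only.

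**Figure D1:**
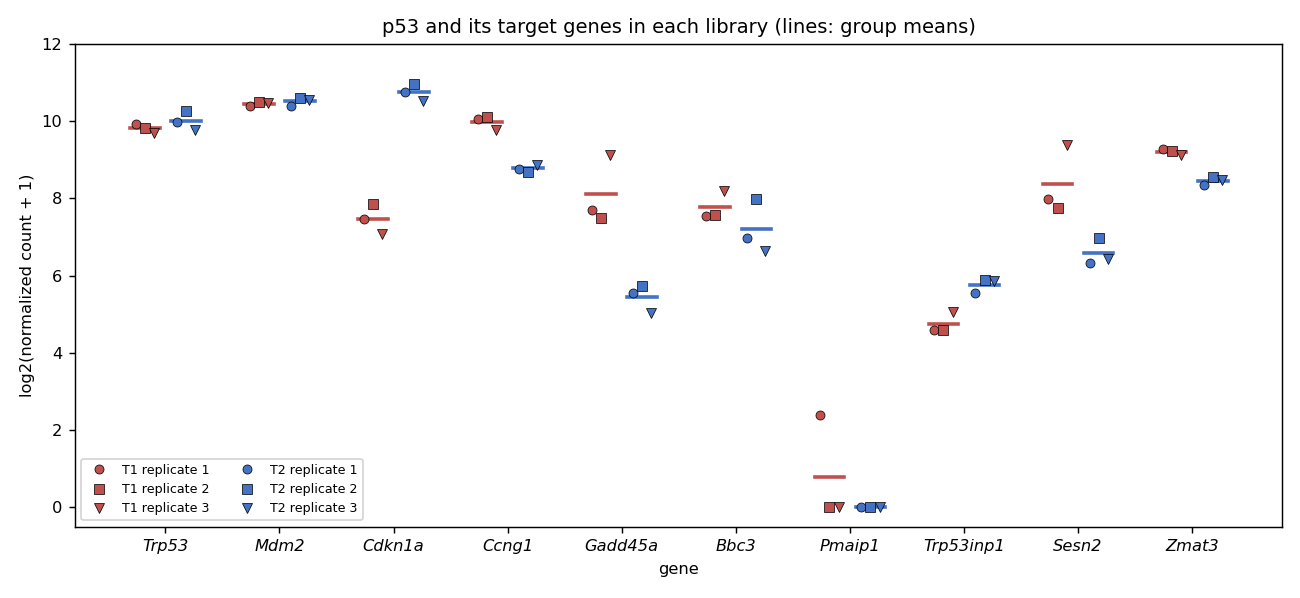
The horizontal axis gives the 10 genes and the vertical axis their log2(normalized count + 1) in each library, red for T1 and blue for T2 cells, with 1 marker shape per replicate number and a line at each group mean. Cdkn1a and Trp53inp1 lay higher in every T2 library, Ccng1, Gadd45a, Sesn2 and Zmat3 lay higher in every T1 library, and the groups of Trp53, Mdm2 and Bbc3 overlapped.

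Trp53 itself did not pass the test. In mm10 the gene spans chromosome 11, 69580359 to 69591873 (plus strand), and 6 transcripts are annotated. The T1 libraries held 979.8, 909.5 and 822 normalized counts, and the T2 libraries held 1008, 1233 and 874. The groups overlapped, with T2 replicate 3 below T1 replicates 1 and 2. The log2 fold change was -0.19, with a 95% confidence interval from -0.48 to 0.10 (adjusted p = 0.226 in limma; exact permutation test, two-sided p = 0.4). The 3 genes whose pattern over the 6 samples was closest to that of Trp53 were Pom121, Lime1 and Impdh2, with a root mean square difference of the centred log2 values of 0.03, 0.04 and 0.04. They were picked as the nearest of 11514 genes, so the match is a description and shows no shared regulation.

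Mdm2, the ligase that limits p53 and one of its direct targets, was the most even gene of the list. Its normalized counts were 1338, 1432 and 1415 in the T1 libraries and 1337, 1555 and 1496 in the T2 libraries. The T1 values lay within the range of the T2 values. The log2 fold change was -0.07 (95% confidence interval -0.26 to 0.13, adjusted p = 0.531 in limma; exact permutation test, two-sided p = 0.5). Mdm2 (chromosome 10, 117688875 to 117710758, minus strand) had the smallest standard error of the 9 genes tested, 0.09. Log2 fold changes below -0.26 or above 0.13 lay outside the confidence interval.

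Cdkn1a encodes p21, the inhibitor of cyclin-dependent kinases through which p53 arrests the cell cycle, and it had the largest change of the list. It lies on chromosome 17 from 29090976 to 29100727 on the plus strand. The T1 libraries held 176, 233 and 134 normalized counts, and the T2 libraries held 1719, 2009.8 and 1484. Every T2 library was far above every T1 library. The mean was 181 ± 49.6 in T1 and 1738 ± 264 in T2 cells (SD, n = 3 each). The log2 fold change was -3.28, a fitted level 9.74-fold higher in T2 cells (standard error 0.19, adjusted p = 2.57e-07 in limma). An annotated gene on the other strand covers 7.68% of the exonic length of Cdkn1a, and the strand setting of the counting is not given in the sources used here.

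Ccng1 encodes cyclin G1, an early p53 target that recruits a phosphatase to Mdm2, and it changed in the direction opposite to Cdkn1a. Its normalized counts were 1066, 1107 and 876 in the T1 libraries and 436, 412 and 467 in the T2 libraries. The groups did not overlap, as was true of 6 of the 9 genes and of 68.1% of all genes tested. Ccng1 (chromosome 11, 40748552 to 40755311, minus strand) had a fitted level 2.31-fold higher in T1 cells, with a log2 fold change of 1.21 and a standard error of 0.11 (adjusted p = 8.76e-06 in limma). The 2 genes with a p53 element in the promoter window thus moved apart between the populations, with log2 fold changes of -3.28 for Cdkn1a and 1.21 for Ccng1. A match is a description of the letters and shows no binding.

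Gadd45a encodes a stress protein that binds PCNA and Cdk1 and takes part in G2 arrest and DNA repair. The T1 libraries held 208, 179 and 561 normalized counts, and the T2 libraries held 46.0, 52.2 and 31.5. All T1 libraries were above all T2 libraries, and T1 replicate 3 held 2.69 times the next highest T1 value. On the log2 scale the fold change was 2.67 with a standard error of 0.38 (adjusted p = 0.000157 in limma), and 2.16 without T1 replicate 3 (adjusted p = 6.26e-05 in limma). Gadd45a lies on chromosome 6 from 67035096 to 67037457 on the minus strand. A gene on the other strand, E230016M11Rik, covers 19.1% of its exonic length and held at most 12 reads in a library.

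Of the genes that promote cell death, Bbc3, which encodes the BH3-only protein Puma, did not pass the test. Its normalized counts were 185, 189 and 293 in the T1 libraries and 125, 254 and 98.4 in the T2 libraries. T2 replicate 2 lay above T1 replicates 1 and 2 and held 2.03 times the next highest T2 value. The log2 fold change was 0.57 (95% confidence interval -0.14 to 1.27, adjusted p = 0.146 in limma; exact permutation test, two-sided p = 0.3). Without T2 replicate 2 it was 0.96 and passed (adjusted p = 0.00739 in limma), so this library decided the call for Bbc3 (chromosome 7, 16308393 to 16318205, plus strand).

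Pmaip1, which encodes the BH3-only protein Noxa, was close to silent. It lies on chromosome 18 from 66458533 to 66465565. T1 replicate 1 held 4 reads of it and the other 5 libraries held none, each of which allows up to 3 reads. It was therefore not tested and no fold is given. A difference between the populations was not detectable at this depth.

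Trp53inp1, whose product takes part in autophagy and in the phosphorylation of p53 that favors apoptosis, was low in both populations. The T1 libraries held 23.3, 23.3 and 32.2 normalized counts and the T2 libraries 46.0, 58.4 and 57.5. Every T2 library was above every T1 library. The log2 fold change was -1.02, a fitted level 2.03-fold higher in T2 cells, with a standard error of 0.25 (adjusted p = 0.00475 in limma). The libraries held 22 to 62 reads of it. The adjusted p in limma was 0.01 to 0.0205 in 5 of the 6 fits that left out a library, with log2 fold changes of -1.13 to -0.95, and the call held without T1 replicate 3 (-1.17, adjusted p = 0.00262). Trp53inp1 lies on chromosome 4 from 11156431 to 11174379 on the plus strand.

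Sesn2 encodes sestrin 2, which restrains the growth regulator mTORC1 and counters oxidative stress. The T1 libraries held 251, 216 and 667 normalized counts and the T2 libraries 79.3, 125 and 85.4. The groups did not overlap, and T1 replicate 3 again stood above the others of its group, at 2.66 times the next highest. T1 over T2 came to 1.79 on the log2 scale with a standard error of 0.37 (adjusted p = 0.00168 in limma). It was 1.29 without T1 replicate 3 (adjusted p = 0.000735 in limma) and lost the call without T2 replicate 1 (1.67, adjusted p = 0.0109) and without T2 replicate 3 (1.72, adjusted p = 0.0116), with a fold change about as large. Sesn2 lies on chromosome 4 from 132492032 to 132510501 on the minus strand.

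Zmat3 encodes an RNA-binding zinc finger protein that p53 induces and that acts in splicing and RNA stability. Its normalized counts were 626, 598 and 556 in the T1 libraries and 327, 373 and 354 in the T2 libraries, with no overlap. Zmat3 (chromosome 3, 32334792 to 32366014, minus strand) had a fitted level 1.69-fold higher in T1 cells, with a log2 fold change of 0.76 and a standard error of 0.11 (adjusted p = 0.000166 in limma). It was the smallest change of the 6 genes called, and the libraries of each group lay close together.

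Adding the size filter of the study's methods, a log2 value beyond 2 either way, left Cdkn1a and Gadd45a of the 9 genes, against 8.37% of all genes tested.

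The order of the levels differed between the populations. Levels of different genes were compared as normalized counts per kilobase of exonic length. In T1 cells Ccng1 had the highest mean level, 289 ± 35.0 per kilobase, followed by Mdm2 with 275 ± 9.82 and Trp53 with 223 ± 19.6 (SD, n = 3 each). Ccng1 and Mdm2 overlapped in T1 cells, whereas Mdm2 lay above Trp53 in every T1 library. In T2 cells Cdkn1a led with 489 ± 74.2 per kilobase, above Mdm2 with 288 ± 22.2 and Trp53 with 257 ± 44.8 (SD, n = 3 each). Mdm2 and Trp53 overlapped there. Cdkn1a, first in T2 cells, ranked 8 of 10 in T1 cells with 50.8 ± 14.0 per kilobase, where it overlapped Zmat3, and Gadd45a went from rank 4 in T1 cells to rank 8 in T2 cells. Trp53inp1, with 4.05 ± 0.797 and 8.34 ± 1.07 per kilobase in T1 and T2 cells (SD, n = 3 each), ranked 9 in both, and Pmaip1 was last.

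**Figure D2:**
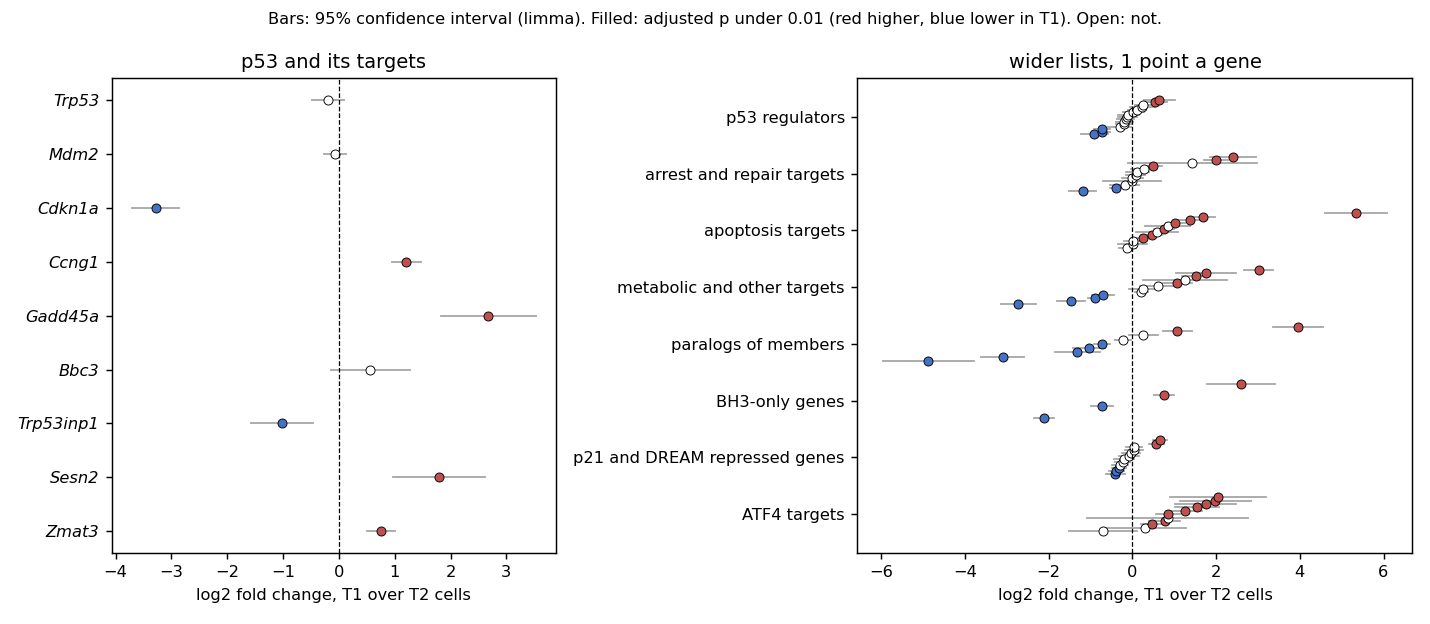
The horizontal axes give the log2 fold change of T1 over T2 cells with its 95% confidence interval from limma, for the 9 tested genes of the p53 list on the left and for 8 wider lists on the right, 1 point per gene. Filled points passed an adjusted p-value of 0.01 (red higher, blue lower in T1 cells) and open points did not. In the list of apoptosis targets 12 genes were tested, and 7 were called higher and 0 lower in T1 cells, beside 25.1% and 24.4% of all genes.

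A wider set of 40 genes listed as p53 targets was read in the same fit. Sesn1 and Trp53inp2 of this set are also read below as paralogs, and Bid as a BH3-only gene. Of the 40 genes, 36 were tested, 14 were called higher and 6 lower in T1 cells, and 16 were not called, where 49.5% of all genes tested were called, 25.1% higher and 24.4% lower. Their median log2 fold change was 0.36, against -0.01 over all genes tested. Of 13 targets that act in arrest and repair, 12 were tested, 3 were higher and 2 lower in T1 cells, a share no larger than the 49.5% over all genes. Plk2, a polo-like kinase, had a log2 fold change of 2.41 (adjusted p = 1.41e-05 in limma), and Sfn, which encodes the 14-3-3 protein sigma that holds cells in G2, of 1.998 (adjusted p = 7.34e-07 in limma). Psrc1 was lower in T1 cells, with -1.19, and Gtse1 higher, with 0.50. The repair genes Xpc and Ddb2, with log2 fold changes of 0.11 and -0.18, did not pass (adjusted p = 0.453 and 0.328 in limma).

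Of 13 apoptosis targets, 12 were tested, and 7 were called higher and 0 lower in T1 cells, against 25.1% and 24.4% of all genes. With each library left out in turn, 5 to 6 were called in limma. Bax, with a log2 fold change of 0.46, lost its call without T1 replicate 1, 2 or 3. Ei24, with 0.25, kept its call only without T1 replicate 3. Fas, the death receptor, averaged 91.4 ± 12.1 normalized counts in T1 libraries (SD, n = 3). The T2 libraries together held 4 reads against 279 in the T1 libraries. The ratio was 70.5, with an exact 95% interval from counting of 27.2 to 260. Aen, an apoptosis-enhancing nuclease, had a log2 fold change of 1.68, Perp, a membrane protein of desmosomes and of p53-driven death, of 1.37, and Tnfrsf10b, the receptor of the death ligand TRAIL, of 1.03 (adjusted p = 2.59e-06, 3.7e-06 and 9.69e-06 in limma). Eda2r, too low to be tested and singled out after its values were seen, held 28 reads in the T1 libraries and none in the T2 libraries, at least 3.16-fold higher in T1 cells against 3 reads a library. Apaf1, the scaffold of the apoptosome, had a log2 fold change of 0.02 and did not pass (adjusted p = 0.865 in limma). Of 5 epithelial markers, Epcam, Cdh1 and Krt14 were higher in T1 cells, with log2 fold changes of 6.46, 4.98 and 10.36, while Krt8 and Krt18 had 0.20 and 0.10 and did not pass (adjusted p = 0.0534 and 0.394 in limma). Their sum was 64000 to 69950 normalized counts in T1 and 37480 to 43410 in T2 libraries, and the part of that difference in the apoptosis list was not tested.

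Of 14 targets in metabolism and other roles, 12 were tested, 4 were higher and 4 lower in T1 cells, beside 25.1% and 24.4% of all genes. Gls2, the liver-type glutaminase, averaged 515 ± 46.99 in T1 and 63.0 ± 9.48 in T2 libraries (normalized counts, SD, n = 3 per group), a log2 fold change of 3.02 (adjusted p = 1.42e-07 in limma). Tigar, which limits glycolysis, rose by 1.52 and the mTORC1 inhibitor Ddit4 by 1.76 on the log2 scale. Ak1, an adenylate kinase, fell by 2.72 in T1 cells (adjusted p = 8.02e-07 in limma). Large changes in this list lay on both sides. Sco2 was listed at 0 in every library, and other genes cover 91.8% of its exonic length, so its 0 is not read as absence.

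Of 18 regulators of p53, 15 were tested, and 2 were higher and 3 lower in T1 cells, where 49.5% of all genes were called. The median absolute log2 fold change was 0.23, beside 0.45 over all genes, and that difference was not tested. Chek2, a kinase that activates p53 after DNA breaks, was lower in T1 cells by a log2 fold change of -0.91 (adjusted p = 0.000315 in limma). Mdm4, the partner of Mdm2 that blocks the activation domain of p53, averaged 1239 ± 54.7 in T1 and 2054 ± 132 in T2 libraries (normalized counts, SD, n = 3 per group), a log2 fold change of -0.73 (adjusted p = 3.17e-05 in limma). Trp53bp1, which acts at DNA breaks, also had -0.73, and Hipk2, a kinase of p53, rose by 0.65 in T1 cells. Hipk2 lost its call in limma without T1 replicate 2 or 3 or T2 replicate 1 or 3, with log2 fold changes of 0.72, 0.48, 0.56 and 0.61. The phosphatase Ppm1d, the kinase Atm and the deubiquitinase Usp7 had log2 fold changes of -0.12, -0.20 and 0.25 and did not pass (adjusted p = 0.358, 0.0867 and 0.0325 in limma). Cdkn2a, which encodes the Mdm2 inhibitor p19Arf and the kinase inhibitor p16, was listed at 0 in all 6 libraries, which allows up to 3 reads in each, and was singled out after its values were seen. The other members of the p53 family were near silent, with at most 8 reads of Trp63 and 1 of Trp73 in a library.

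The paralogs of the 10 genes were read beside them, since they share protein function but not all regulation. Of 13 such genes, 9 were tested, 2 were higher and 5 lower in T1 cells, where 25.1% of all genes were higher and 24.4% lower. Cyclin G2, encoded by Ccng2, averaged 218 ± 88.4 in T1 and 1803 ± 271 in T2 libraries (normalized counts, SD, n = 3 per group), a log2 fold change of -3.10 (adjusted p = 1.55e-06 in limma), whereas Ccng1 rose by 1.21. Gadd45b rose with Gadd45a, with 3.96 (adjusted p = 8.47e-07 in limma), while Gadd45g fell by 1.31 (adjusted p = 0.000863 in limma). Sesn3 fell by 1.05 where Sesn2 rose, and Sesn1 had a log2 fold change of 0.26 and did not pass (adjusted p = 0.169 in limma). Trp53inp2 rose by 1.07 where Trp53inp1 fell by 1.02. Zmat1 had 3 reads in the T1 libraries together and 168 in the T2 libraries, a ratio of 55.4 in favor of T2 cells with an exact 95% interval from counting of 18.6 to 272. Cdkn1b, which encodes p27, had a log2 fold change of -0.22 and did not pass (adjusted p = 0.0432 in limma), beside -3.28 for Cdkn1a.

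These differences within families can be read inside each library, where the scaling between libraries cancels. The log2 difference between Ccng1 and Ccng2 was 2.69, 2.69 and 1.45 in the T1 libraries and -2.09, -1.87 and -2.12 in the T2 libraries. The difference between the populations was 4.31. For Sesn2 against Sesn3 the log2 differences were 0.22, 0.12 and 1.14 in the T1 libraries and -2.39, -2.06 and -2.59 in the T2 libraries. Mdm2 against Mdm4 had the smallest shift in either direction, 0.66, with 0.11 to 0.27 in T1 and -0.53 to -0.45 in T2 libraries. Cdkn1a against Cdkn1b, Trp53inp1 against Trp53inp2 and Gadd45a against Gadd45b were lower in T1 cells, with shifts of -3.07, -2.09 and -1.28. The other pairs were higher in T1 cells. The 8 pairs were set together after the values were seen, and each holds a gene already called, so their values are a description.

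**Figure D3:**
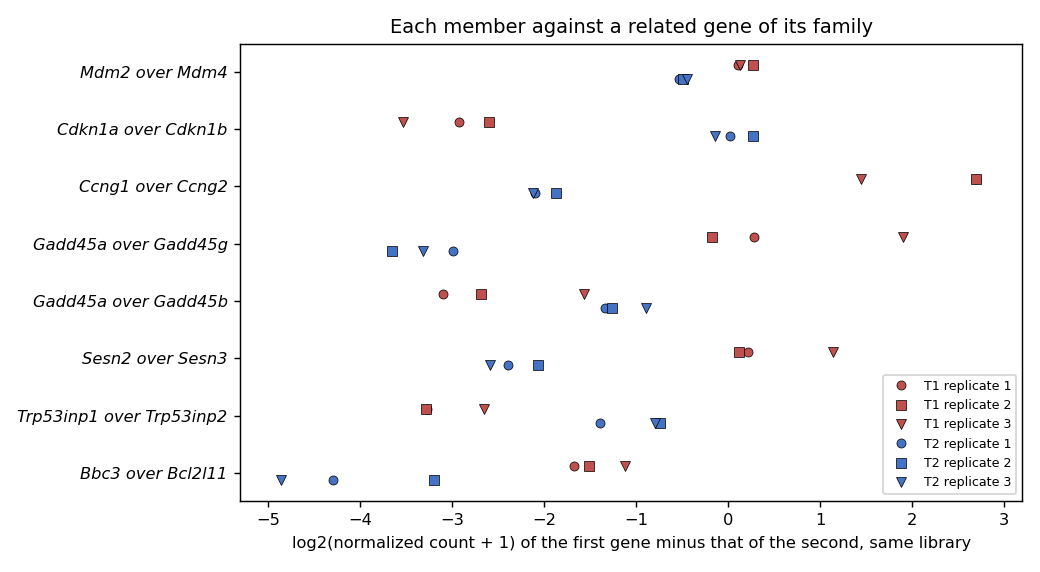
Each row sets a gene of the list against a related gene, and the horizontal axis gives the difference of their log2(normalized count + 1) in the same library, red for T1 and blue for T2 cells, with 1 marker per replicate. Gene length is not corrected, so only the shift between the colors is read. Its size in either direction runs from 0.66 for Mdm2 against Mdm4 to 4.31 for Ccng1 against Ccng2. Red lies lower for Cdkn1a against Cdkn1b, Trp53inp1 against Trp53inp2 and Gadd45a against Gadd45b, and higher in the other rows.

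Other BH3-only genes, which act beside Bbc3 and Pmaip1 to trigger mitochondrial apoptosis, differed in both directions. Bcl2l11, which encodes Bim, averaged 589 ± 49.0 in T1 and 2563 ± 282 in T2 libraries (normalized counts, SD, n = 3 per group), a log2 fold change of -2.12 (adjusted p = 8.75e-08 in limma), and Bad fell by 0.72. Bmf rose by 2.59 and Bid by 0.75 in T1 cells (adjusted p = 0.000136 and 0.000171 in limma). All 4 tested genes of this list of 6 were called, 2 in each direction, where 49.5% of all genes were called.

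p21 is known to lower cell cycle genes through the DREAM repressor complex, so 12 such genes were read beside Cdkn1a. All 12 were tested, 2 were called higher and 3 lower in T1 cells, and 7 were not called, a share of calls no larger than the 49.5% over all genes. Their median log2 fold change was -0.15. Plk1 and Cdc20 rose by 0.65 and 0.58 in T1 cells, and Ccnb2 and Cenpa fell by 0.40 and 0.38. Ccnb2 lost its call in limma without T1 replicate 1 or 2 or T2 replicate 1 or 3 (log2 fold changes of -0.35, -0.35, -0.35 and -0.39), and Cenpa without T2 replicate 1 (-0.31). Mki67, Cdk1 and Ccnb1 had log2 fold changes of -0.09, 0.04 and -0.03 and did not pass (adjusted p = 0.49, 0.707 and 0.837 in limma). Of the 5 genes called, Plk1 had the largest change.

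In each population 1 library stood apart for stress genes. Atf4 encodes a transcription factor of the integrated stress response, and Sesn2, Ddit4 and Gadd45a are known to respond to it. Of 11 tested genes of an ATF4 list of 12, 10 had their highest T1 value in replicate 3, where 41.4% of all genes did, and 9 had their highest T2 value in replicate 2, where 33.6% of all genes did. For these 9 genes the lead over the next T2 value ran from 1.01-fold for Asns to 10.84-fold for Atf3. Trib3 and Phgdh were highest in T2 replicate 1. Trib3 had 495, 524 and 2636 normalized counts in the T1 libraries, and Slc7a11, singled out after its values were seen, had 242, 212 and 909. In the same T1 replicate 3, Gadd45a and Sesn2 lay 1.54 and 1.51 above the mean of the other T1 libraries on the log2 scale. Bbc3, Trp53inp1 and Mdm2 lay 0.64, 0.45 and 0.03 above it, whereas Cdkn1a, Ccng1, Trp53 and Zmat3 lay 0.59, 0.31, 0.20 and 0.14 below it. In T2 replicate 2, 8 of the 9 tested genes of the p53 list had their highest T2 value, where 33.6% of all genes did. Their lead over the next T2 value was small for some, at 1.01-fold for Trp53inp1, 1.04-fold for Mdm2 and 1.05-fold for Zmat3. It was largest for Bbc3, at 2.03-fold. Bbc3 lay 1.19 above the mean of the other T2 libraries. Atf3 and Btg2, both singled out after their values were seen, stood 3.66 and 2.84 above that mean. Btg2, an antiproliferative p53 target, had 165, 154 and 60.5 normalized counts in the T1 libraries and 17.6, 160 and 26.0 in the T2 libraries, and did not pass (adjusted p = 0.0955 in limma).

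**Figure D4:**
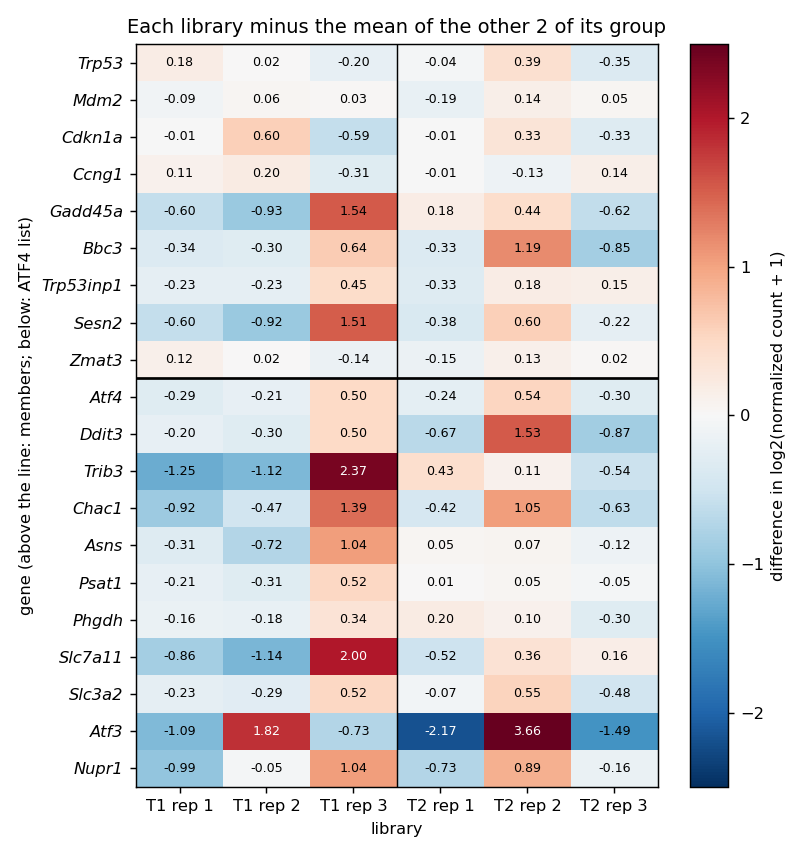
Each cell gives a library's log2(normalized count + 1) minus the mean of the other 2 libraries of its group, for the 9 tested genes of the p53 list above the line and 11 genes of the ATF4 list below it. The column of T1 replicate 3 is high for Gadd45a, Sesn2 and most ATF4 genes and low for Cdkn1a, and the column of T2 replicate 2 is high for Bbc3, Ddit3 and Atf3.

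Between the populations, 8 of the 11 ATF4 genes were called higher and 0 lower in T1 cells, where 25.1% of all genes were higher and 24.4% lower. Asns, Chac1, Nupr1 and Trib3 had log2 fold changes of 1.54, 1.98, 1.75 and 2.05 (adjusted p = 0.000236, 0.00109, 0.000943 and 0.00601 in limma). Trib3 had 1.26 without T1 replicate 3 (adjusted p = 0.000295 in limma), and it lost its call without T2 replicate 1, 2 or 3, with log2 fold changes of 2.19, 2.08 and 1.86. T1 replicate 3 and T2 replicate 2 were both left out in an alternative chosen after seeing the data. In that fit 8 of the 11 ATF4 genes and 7 of the 9 p53 genes were called, Bbc3 among them. Of all 11514 genes tested, 5767 were called in it. Gadd45a then had a log2 fold change of 2.31, Sesn2 of 1.49 and Cdkn1a of -2.98. Trp53 moved from -0.19 to 0.01 and did not pass in either fit. The part of the ATF4 response in the values of Sesn2 and Gadd45a was not tested.

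Markers of other cell types had few reads. The 7 fibroblast markers summed to 20.1 to 40.02 normalized counts in T1 and 0 to 0.979 in T2 libraries, with Col3a1, Lum, Pdgfrb and Thy1 at 0 in all. Most of each T1 sum was Col1a1, with 14.8, 27.9 and 24.4 in the T1 libraries and at most 0.979 in a T2 library. Col1a1 was called higher in T1 cells, with a log2 fold change of 4.17 (adjusted p = 4.94e-05 in limma). The 6 leukocyte markers summed to 58.2 to 87.8 in T1 and 92.8 to 125 in T2 libraries, with Tyrobp and Cd3e at 0 in all. Most of each sum was Cd68, with 58.2, 72.5 and 87.8 in the T1 libraries and 88.1, 118 and 77.9 in the T2 libraries. Cd68 overlapped between the groups and did not pass (adjusted p = 0.182 in limma). The 4 endothelial markers summed to at most 5.29 in a library, with Kdr at 0. In bulk RNA, fewer cells of a type and less RNA per cell cannot be told apart.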

How the data were processed

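RNA from 3 T1 and 3 T2 samples was sequenced as poly(A)-selected libraries. Per the study's methods, the authors trimmed the reads, aligned them to mm10 (TopHat2), made gene counts (HTSeq) and scaled these (DESeq2). The deposited signal values are these normalized counts. Dividing each column by the value of 1 read gave whole reads within 0.1 for 100% of values. No other column was left unused (0). In the table, 27 gene names had been turned into dates. limma 3.58.1 was run with a variance trend on log2(normalized count + 1), for genes with a mean of at least 10, with Benjamini-Hochberg adjustment over all of them. Named genes are the 10 genes, up to 4 called genes with the largest changes in each wider list, the measured paralogs and BH3-only genes, and the 3 genes closest to Trp53. All other genes named were chosen after their values were seen. The genes and lists were chosen with earlier results of these data known. On simulated data limma recovered 48 of 50 genes changed by 1 on the log2 scale and made 2 false calls among 11514. The simulation changed only 200 genes, gave all genes the same relative spread beyond counting, and had no library that stood apart. Its rates therefore do not carry over to genes with a wide spread between libraries, such as Gadd45a and Sesn2. Positions are from GENCODE (mm10) and promoters from RefSeq. Alternatives were edgeR 4.0.16 and DESeq2 1.42.0 on the recovered reads, other pseudocounts, filters and scaling, a replicate block, and each library left out.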

Additional observations from a re-analysis of the deposited data

How the results depend on the processing

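edgeR and DESeq2 on the recovered reads called the same 6 of the 9 tested genes, and 5716 and 6067 of all genes against 5701. Adjusted p-values here are from limma. Trp53inp1 lost its call with no filter on low counts (-1.02, adjusted p = 0.0108), and Sesn2 with no variance trend (1.79, adjusted p = 0.0121). Without the variance trend 2 DREAM and 4 ATF4 genes were called, beside 4941 of all genes. With a log2 fold change beyond 2 also required, 964 genes were called, 2 of the p53 list, 0 regulators, 1 arrest and repair target, 1 apoptosis target, 2 metabolic targets, 3 paralogs, 2 BH3-only genes, 0 DREAM genes and 1 ATF4 gene, and Ccng1 (1.21), Trp53inp1 (-1.02), Sesn2 (1.79) and Zmat3 (0.76) no longer passed. With T1 replicate 3 and T2 replicate 2 left out together, chosen after seeing the data, Trp53 turned from -0.19 to 0.0085 (adjusted p = 0.95) and Bbc3 passed at 0.75 (adjusted p = 0.00746). Leaving out each library in turn gave 4656 to 5797 genes, 4 to 6 of the p53 list, 3 to 5 regulators, 5 to 6 arrest and repair targets, 5 to 6 apoptosis targets, 7 to 8 paralogs, 3 to 5 DREAM genes and 5 to 8 ATF4 genes, and log2 fold changes of 0.28 to 0.96 for Bbc3, -1.17 to -0.95 for Trp53inp1 and 1.29 to 2.10 for Sesn2. The causes of these changes were not tested. Same-numbered T1 and T2 replicates correlated at 0.06, 0.17 and 0.10 after centring, and those with unlike numbers at -0.15 to 0.07. T2 replicate 1 correlated slightly better with T1 replicate 3 (0.07) than with T1 replicate 1. Whether the numbers pair the samples cannot be told from these values. A replicate block gave 5780 genes and 6 of the p53 list, and changed no call among the 9 genes. At a minimum mean of 50 Trp53inp1 was not tested. Depth limits Pmaip1, with 4 reads in all.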
